A study of Homo sapiens with 9 samples.

Results

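The 78 genes described here encode mitochondrial ribosomal proteins. They were taken by name from a table of 16366 genes: every gene whose symbol is MRPL or MRPS, a number and, in some, a letter. RNA sequencing libraries from Cal-27 cells, an established line labelled as tongue squamous carcinoma cells of genotype WT, gave their levels in 3 groups of 3 libraries. One group had been in co-culture with exosomes of CAFs for 48 h, one with exosomes that the labels write both as hOMF and as hMOF and do not spell out, and one was the control, labelled Normal Control. Exosomes are small membrane vesicles released by cells. All groups were grown in the same high-glucose medium with fetal bovine serum, and the labels give neither the amount of exosomes nor the cells or donors from which they were collected. The labels call the libraries replicates without naming separate cultures, so the spread behind each p-value is that between libraries and may be technical.

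Mitochondrial ribosomes stand apart from those of the cytoplasm. They translate the few respiratory chain proteins that the mitochondrial genome encodes, while all of their own proteins are encoded in the nucleus, made in the cytoplasm and imported. Part of these proteins descend from bacterial ribosomal proteins, and the others are found in mitochondria only.

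By structure the names are not fully sorted. Of the 78 genes, 51 encode proteins of the large subunit, 30 of them classed here as having a bacterial homologue and 21 as specific to mitochondria. The small subunit accounts for 26, of which 16 are in the first class and 10 in the second. These classes were assigned by name, and sequence homology was not tested. MRPS30 and MRPS18A carry the small-subunit prefix and are built into the large subunit. MRPS36 is left over: its product is a component of the alpha-ketoglutarate dehydrogenase complex of the citric acid cycle and not of the ribosome.

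The libraries held 11185672 to 12779101 estimated counts, of which the 78 genes took between 0.322% and 0.386%. All 78 passed the filter on low counts, as did 12470 genes in all, and the lowest count of any of them in any library was 50, for MRPL1. Squamous carcinoma markers (9 genes) were detected in every library. They summed to between 4572 and 5896 CPM (counts scaled by library size and composition) in control and between 5542 and 6607 with exosomes, mostly KRT17 and KRT5. Fibroblast markers, mostly COL1A1, summed to between 38.4 and 44.2 CPM in control and between 46.3 and 57.3 with exosomes, with 2 to 5 of the 10 at 0 in a library. Endothelial markers, mostly CDH5, summed to between 22.3 and 31.4 CPM in control and between 17.7 and 21.3 with exosomes. Leukocyte markers summed to between 42.4 and 52.9 CPM over all libraries, mostly CD68. PTPRC, which encodes the leukocyte antigen CD45, stood at 7.50 CPM in control replicate 3 and at or below 0.0909 CPM in the other 8 libraries. Thus the fibroblast sums were higher and the endothelial sums lower in all 6 exosome libraries than in control, along with the changes given below, and their part in those changes was not tested. Single markers were called too. With CAF exosomes and with hOMF exosomes KRT5 rose by 0.72 and 0.51 on the log2 scale and CDH5 fell by 0.69 and 0.66. LUM, a fibroblast marker, rose by 1.06 and 0.94. Of the 9 squamous markers, 4 rose with CAF exosomes and 2 with hOMF exosomes, and 0 fell. Of the 3 endothelial markers tested, another went the same way as CDH5, with -1.07 and -0.62. The remaining one went the other way, by 0.73 and 0.70, and neither was called. With hOMF exosomes 1 leukocyte marker fell, by 0.56, and with CAF exosomes 0 were called. Over all tested genes 18.2% were called with CAF exosomes and 23.2% with hOMF exosomes.

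Promoter sequences matched by gene ID were at hand for 70 of the 78 genes, from RefSeq on GRCh38.p14, each covering 250 bases before and 50 after the annotated start. They are shown first for a pair of short motifs that recur in them. ETS factors bind around the letters CCGGAAG, and YY1, a zinc finger factor, around AAGATGGCG. Both strands were searched, and a match of one can share its letters AAG with a match of the other. CCGGAAG was present in 29 of the 70 windows (41.4%), against 19.5% of the windows of all tested genes and 10.7% of all windows of that length. AAGATGGCG was present in 13 (18.6%), against 4.02% and 1.85%. At least 1 of them was found in 38 windows (54.3%, against 22.6% of tested genes), and 4 windows held both.

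The sites below are from genes named later in the text. Each run is 29 bases, read in the direction of the motif, which is in capitals. The first 4 are CCGGAAG matches and the next 4 are AAGATGGCG matches, and MRPS18A gives 1 of each.
MRPS23 (chr17:57850041-57850069, + strand): tgctaccggaaCCGGAAGcggctgctcca
MRPL43 (chr10:100987498-100987526, - strand): tcgtcccggaaCCGGAAGcctcgaggttt
MRPL54 (chr19:3762650-3762678, - strand): agtgcacgtttCCGGAAGacgtcagtggc
MRPS18A (chr6:43687805-43687833, - strand): ggcgctacgttCCGGAAGcggaaatggac
MRPS18A (chr6:43687764-43687792, - strand): taggtttttgAAGATGGCGgccctcaagg
MRPL42 (chr12:93467512-93467540, + strand): ggattgaaacAAGATGGCGggttcgtggt
MRPS24 (chr7:43869480-43869508, - strand): cgcttggcccAAGATGGCGgcctccgtgt
MRPS30 (chr5:44808950-44808978, + strand): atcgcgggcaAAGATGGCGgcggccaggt

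The motifs took different places in the windows. Of 39 CCGGAAG matches, 33 lay before the annotated start, with a median position of -22. A window has 250 bases before the start and 50 after, so a count before the start partly reflects the window. Of 14 AAGATGGCG matches, 10 lay after it, with a median position of 9.5. Over all promoter windows, those of these genes included, 16.7% of CCGGAAG matches and 61.3% of AAGATGGCG matches lay after the start. The difference in place between the motifs is thus not particular to these genes. AAGATGGCG also holds the letters ATG of a start codon, and how many of the matches are start codons was not tested.

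Other motifs were no more frequent than in tested genes at large. GGGCGG, the core of a GC box bound by SP1, was in 43 windows (61.4%, against 70.5%), and CCAAT in 20 (28.6%, against 36.6%). The NRF1 motif was in 8 windows (11.4%, against 11.8%); NRF1 is a known activator of nuclear genes for mitochondrial proteins. TATAAA was in 3 (4.29%, against 5.53%), and the E-box CACGTG, which MYC and related factors bind, in 7 (10.0%, against 10.2%). A match describes letters only and shows no binding.

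**Figure D1:**
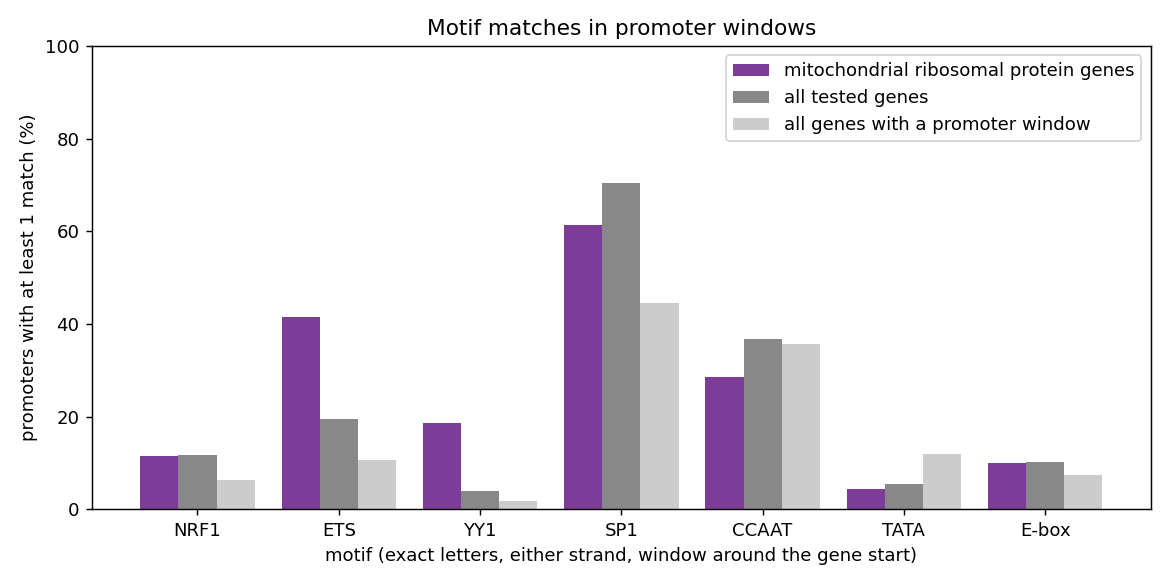
Bars give the percentage of promoter windows with at least 1 exact match of each motif on either strand, for the mitochondrial ribosomal protein genes, all tested genes and all genes with a window. The ETS and YY1 bars of the mitochondrial ribosomal protein genes stand at 41.4% and 18.6%, above those of tested genes at 19.5% and 4.02%, while their other bars lie at or below those of tested genes.

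Levels between genes were compared as FPKM, fragments scaled by transcript length and depth. In control cells the median of the 78 genes was 39.1 FPKM, against 9.39 for all tested genes, and 67 of the 78 lay above that overall median. Most were at a similar order: 58 lay between 10 and 100 FPKM, 11 below and 9 above. The quartiles were 20 and 66.4 FPKM. Effective transcript lengths were short, with a median of 980 bases against 2893 for all tested genes.

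The highest level belonged to MRPS24, a small-subunit protein with a bacterial homologue, at 683, 685 and 762 FPKM in the 3 control libraries. MRPL41, a mitochondria-specific protein of the large subunit, followed at 204, 293 and 282 FPKM. Next came MRPL23, which sits where the new protein leaves the large subunit, with 179, 219 and 202 FPKM. MRPS24 stood clear of every other gene, whereas the ranges of MRPL41 and MRPL23 overlapped. MRPS6, a small-subunit protein, measured 168 ± 20.2 FPKM (SD, n = 3) and MRPL43, a mitochondria-specific large-subunit protein, 139 ± 18.7. Estimated counts of MRPS24 and MRPL23 were not whole in 8 of 9 libraries, so part of their reads was shared out between similar or overlapping transcripts and their levels are uncertain.

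The lowest was MRPL42, a mitochondria-specific large-subunit protein, at 2.40, 2.48 and 2.41 FPKM. Then came 3 mitochondria-specific small-subunit proteins, MRPS23 with 3.75 ± 0.376 FPKM, MRPS33 with 4.19 ± 0.150 and MRPS25 with 4.30 ± 0.448 (SD, n = 3). MRPL19, whose protein has a bacterial homologue, measured 4.87 ± 0.279. These products belong to the same particle as that of MRPS24, and transcript levels ran from 2.43 to 710 FPKM. That span rests on the lengths behind the FPKM: the deposited values imply 15286 bases for MRPL42, the longest of the 78, and 394 for MRPS24. In CPM, which is not scaled by length, MRPL42 averaged 37.9 in control, rank 39 of 78, and MRPS24 averaged 285, rank 1. The order between neighbours was mostly not resolved: 70 of the 77 neighbouring pairs overlapped in their control libraries. The coefficient of variation over control libraries had a median of 7.69%, from 0.376% for MRPL53 to 30.0% for MRPL1. MRPS36 lay among the low genes at 8.69, 9.54 and 9.95 FPKM, while MRPS30 and MRPS18A measured 25.6, 32.2 and 32.9, and 59.0, 58.1 and 67.3 FPKM.

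Cells with exosomes had the same genes at both ends. MRPS24 was highest in all 3 groups, at 710 FPKM in control, 648 with CAF exosomes and 661 with hOMF exosomes, and MRPL42 was lowest, at 2.43, 2.29 and 2.70 FPKM. The medians of the 78 genes were 39.1, 40.0 and 40.8 FPKM.

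**Figure D2:**
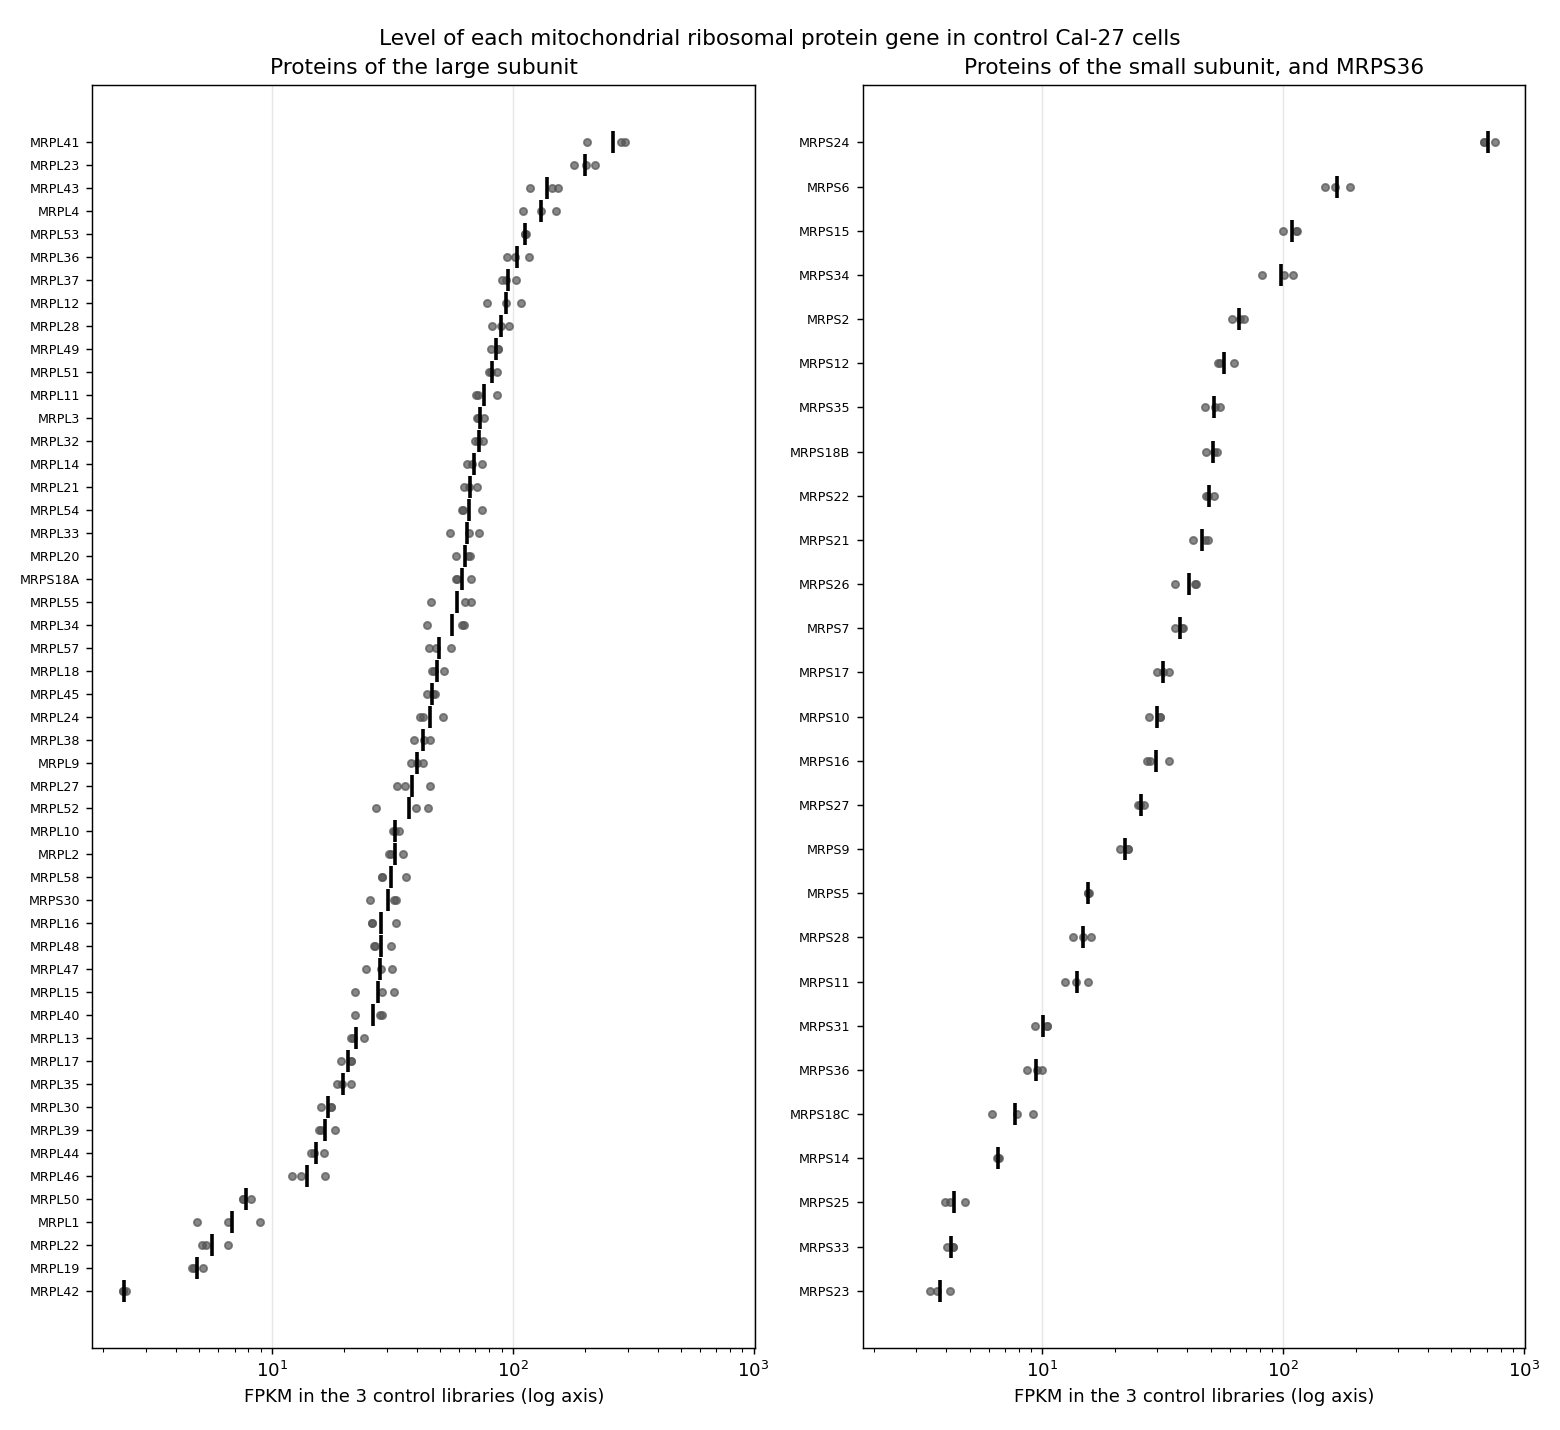
Points give the FPKM of each gene in the 3 control libraries on a log axis and bars mark their mean, with large-subunit proteins on the left and small-subunit proteins and MRPS36 on the right. MRPS24 stands alone at 710 FPKM, and MRPL42 is lowest at 2.43.

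The first comparison asks what CAF exosomes changed in the carcinoma cells. Few genes of the mitochondrial ribosome changed, and those that did fell: MRPL49, MRPS6, MRPL15 and MRPL45 were lower with CAF exosomes than in control, each by less than 1.5-fold. Of the 78 genes, 0 rose and 4 fell (5.13%) at an adjusted p under 0.05 in edgeR's quasi-likelihood test, where 18.2% of all tested genes were called, 9.51% higher and 8.64% lower. At an unadjusted p under 0.05 there were 5, against 32.8% of tested genes: 0 higher, against 16.6%, and 5 lower, against 16.2%. Libraries of the 2 groups did not overlap for 5 genes in the higher direction, against 18% of tested genes, and for 8 in the lower, against 18.2%. The median change was -0.07 on the log2 scale, against -0.01 for all tested genes, with 27 genes above 0 and 51 below. In bulk RNA, less transcript per cell and fewer cells with the transcript cannot be told apart. By subunit, 3 of 51 large-subunit and 1 of 26 small-subunit genes fell.

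MRPL49, a mitochondria-specific protein of the large subunit, measured 156, 157 and 144 CPM in control, 115, 110.4 and 108 with CAF exosomes, and 113, 113 and 112 with hOMF exosomes. Every exosome library lay below every control library, and the 2 exosome groups overlapped. The log2 change with CAF exosomes was -0.45 (SE 0.07, adjusted p = 0.000376). FAU and SYVN1 overlap MRPL49 on the opposite strand, and neither was called, with log2 changes of 0.12 and 0.09.

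MRPS6, a small-subunit protein with a bacterial homologue, measured 128, 110.5 and 99.4 CPM in control, 81.1, 80.4 and 81.0 with CAF exosomes, and 74.9, 80.6 and 79.95 with hOMF exosomes. The control libraries were spread over a wider range than the others and all lay above them. The log2 change with CAF exosomes was -0.48 (SE 0.08, adjusted p = 0.00139). MRPS6 shares exon sequence on the same strand with SLC5A3, the gene of a myo-inositol transporter, and its estimated counts were not whole in 5 of 9 libraries. SLC5A3 itself measured 289, 287 and 244 CPM in control, 186, 126 and 157 with CAF exosomes and 148, 167 and 164 with hOMF exosomes, a log2 change of -0.81 (SE 0.11) with CAF exosomes. How much of the change of MRPS6 comes from reads shared with SLC5A3 was not tested, so its value is uncertain.

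MRPL15, with a bacterial homologue in the large subunit, measured 28, 33.2 and 39.3 CPM in control, 25.8, 26.4 and 25.7 with CAF exosomes, and 26.1, 28.2 and 29.2 with hOMF exosomes. The CAF libraries were close together and below all 3 control libraries, and the lowest control library lay inside the hOMF range. The log2 change with CAF exosomes was -0.37 (SE 0.11, adjusted p = 0.0248). That call was lost under 6 of 20 alternative settings, among them each fit without CAF replicate 1 or 3 or control replicate 2 or 3.

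MRPL45, a large-subunit protein near the tunnel exit that contacts the inner membrane, measured 61.4, 58.0 and 61.3 CPM in control, 54.0, 50.6 and 51.5 with CAF exosomes, and 56.5, 55.8 and 58.7 with hOMF exosomes. The CAF libraries lay below all others. Its log2 change with CAF exosomes was -0.21 (SE 0.07, adjusted p = 0.0455), and the call was lost under 17 of 20 alternative settings. MRPL49 and MRPS6 kept theirs under all 20.

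Among genes that did not pass, MRPL46, a protein of the central protuberance, had a change of -0.36 (adjusted p = 0.0870), with control at 9.64, 8.85 and 12 CPM and CAF exosomes at 7.22, 8.17 and 8.43. MRPS35, specific to the small subunit of mitochondria, stood at -0.17 and MRPS30 at -0.19. MRPS9 and MRPS33 stood at 0.16 and 0.17. MRPS36, outside the ribosome, stood at -0.06, with 9.27, 10.2 and 10.4 CPM in control and 8.74, 10.7 and 9.18 with CAF exosomes.

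The next comparison sets hOMF exosomes against the same control libraries. Here MRPL49, MRPS6, MRPS17 and MRPS2 fell and MRPS9 rose, 3 of the 4 that fell and the 1 that rose being small-subunit genes with a bacterial homologue. That class has 16 genes, so its calls are near the share of all tested genes called, 23.2%. In all, 1 gene rose and 4 fell (6.41% together), where 23.2% of tested genes were called, 11.8% higher and 11.4% lower. At an unadjusted p under 0.05 there were 11, against 36.7% of tested genes: 2 higher, against 18.5%, and 9 lower, against 18.2%. The libraries did not overlap for 7 genes in the higher direction, against 20.2%, and for 9 in the lower, against 19.3%. The median change was -0.05, against 0.00 for all tested genes, with 25 genes above 0 and 53 below. This median turned to 0.01 with library totals in place of TMM scaling and with log2 FPKM, so its sign depends on scaling. With libraries adjusted for the GC content and length of transcripts, 13 genes (16.7%) were called, 1 higher and 12 lower. Calls among all 12470 tested genes then went from 2896 to 3897, and of the 3897 calls 1619 were higher.

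MRPL49 had a log2 change of -0.43 with hOMF exosomes (SE 0.07, adjusted p = 0.000329), and MRPS6 one of -0.52 (SE 0.08, adjusted p = 0.000483). Both had every hOMF library below every control library and kept their calls under all 20 alternative settings. SLC5A3 stood at -0.77. Because the comparisons share the control libraries, a low or high control moves both, and the 2 genes called in each are not 2 independent results.

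MRPS9, a protein of the head of the small subunit with a bacterial homologue, measured 26.5, 24.8 and 26.0 CPM in control, 28.1, 28.6 and 29.4 with CAF exosomes, and 31.1, 32.1 and 31.9 with hOMF exosomes. The groups did not overlap, with control lowest, CAF between and hOMF highest. The log2 change with hOMF exosomes was 0.30 (SE 0.08, adjusted p = 0.0115), against 0.16 with CAF exosomes (adjusted p = 0.183), and the difference between the exosome groups did not pass (-0.15, SE 0.08, adjusted p = 0.719). The call was lost under 1 of 20 settings, without control replicate 2 (adjusted p = 0.0529).

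MRPS17, a small-subunit protein with a bacterial homologue, measured 52.1, 49.5 and 45.6 CPM in control, 43.9, 47.5 and 49.4 with CAF exosomes, and 43.0, 40.5 and 39.7 with hOMF exosomes. The hOMF libraries were lowest, and the CAF and control ranges overlapped. The log2 change with hOMF exosomes was -0.26 (SE 0.08, adjusted p = 0.0307), lost under 7 of 20 settings, including each fit without hOMF replicate 2 or 3 or control replicate 1 or 2. NIPSNAP2, which overlaps MRPS17 on the same strand, moved the other way, with 0.35 (SE 0.08, adjusted p = 0.00609).

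MRPS2, also with a bacterial homologue, measured 81.5, 84.6 and 75.1 CPM in control, 68.2, 81.2 and 74.2 with CAF exosomes, and 69.5, 69.8 and 66.7 with hOMF exosomes. The hOMF libraries lay below all control libraries, while the CAF libraries spanned both ranges. Its log2 change with hOMF exosomes was -0.23 (SE 0.08, adjusted p = 0.0454), and it was lost under 11 of 20 settings.

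Large-subunit genes did not pass beyond MRPL49. MRPL46 stood at -0.38 (adjusted p = 0.0615), with hOMF libraries at 7.46, 7.87 and 8.18 CPM, and MRPL15 at -0.27 (adjusted p = 0.0757). MRPL50 and MRPL54, both specific to mitochondria, stood at -0.23 and -0.25. MRPS11, a small-subunit protein with a bacterial homologue, stood at -0.27 with adjusted p = 0.112, and MRPS33 at 0.23 with adjusted p = 0.131. MRPL45, called with CAF exosomes, stood at -0.08 with hOMF exosomes, and the direct difference between the exosome groups was -0.13 (SE 0.07, adjusted p = 0.718).

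**Figure D3:**
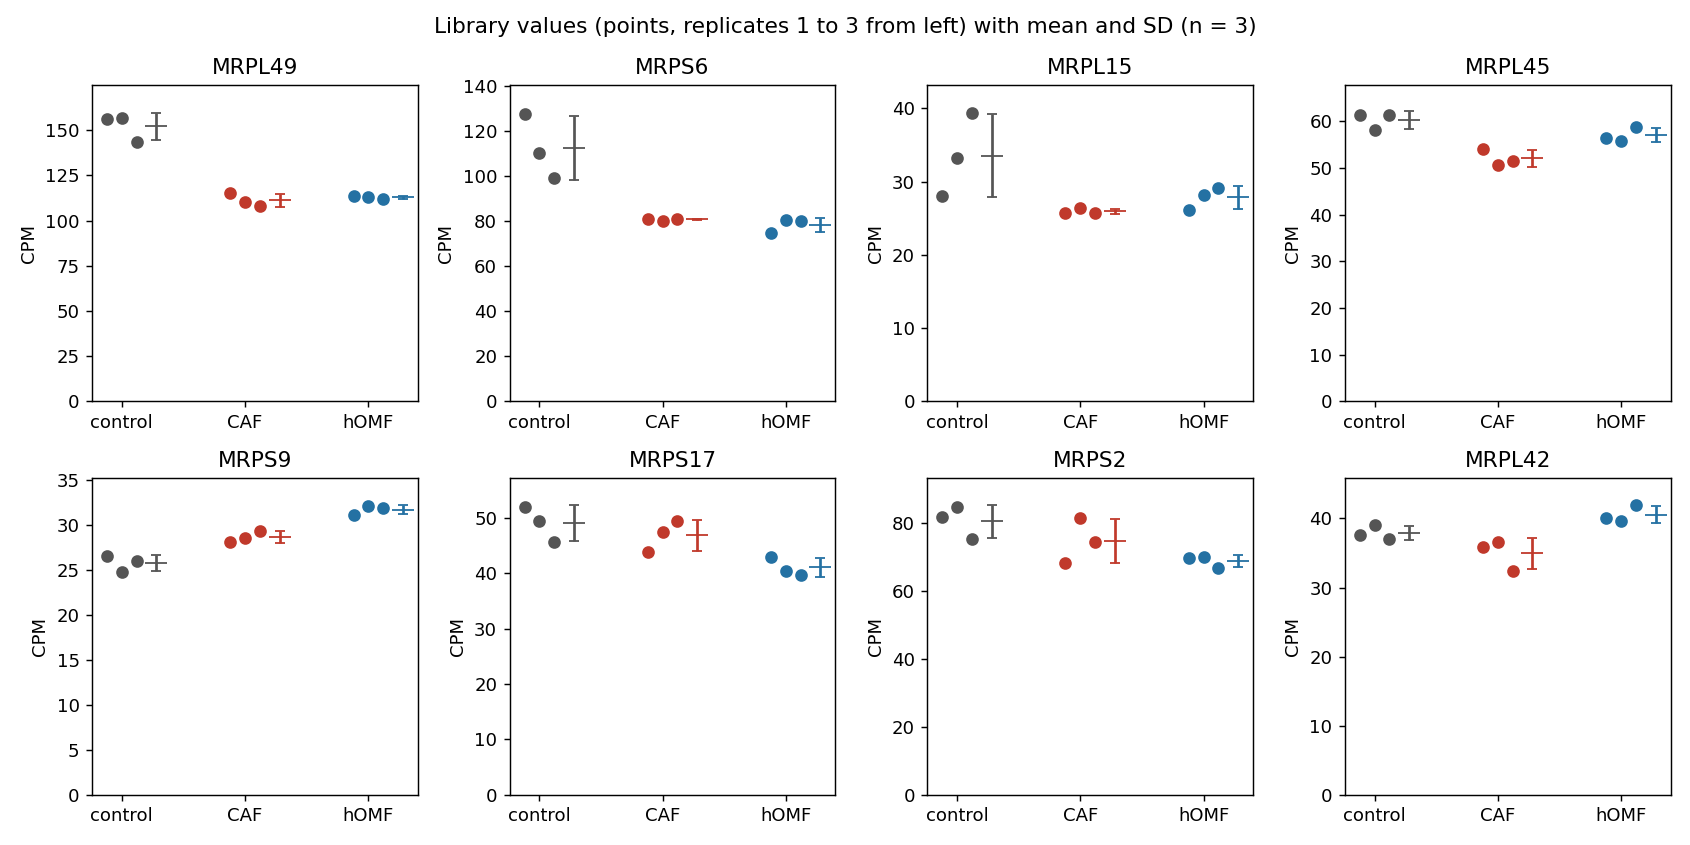
Points give the CPM of 8 genes in each library, on axes that start at 0, and bars give the mean and SD of each group (n = 3). MRPL49 and MRPS6 are lower in all 6 exosome libraries than in control, MRPS9 steps up from control to CAF to hOMF, and MRPL42 is the gene with the smallest p between the exosome groups.

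Direct comparison of the 2 exosome groups called 0 of the 78 genes by edgeR and by DESeq2, where 0.016% of tested genes (2 genes) were called by edgeR. At an unadjusted p under 0.05 there were 3 genes, MRPL42, MRPS17 and MRPS25, against 7.59% of tested genes. MRPL42 measured 37.5, 39.0 and 37.1 CPM in control, 35.9, 36.6 and 32.4 with CAF exosomes and 40.1, 39.6 and 42.0 with hOMF exosomes. The CAF libraries lay below and the hOMF libraries above control, and the log2 difference was -0.22 (SE 0.08, adjusted p = 0.518). MRPS17 stood at 0.19 and MRPS25 at 0.25, with adjusted p = 0.594 and 0.620. The median difference over the 78 genes was -0.01, with 38 genes above 0 and 40 below.

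How small the changes were can be given with their intervals. The SE of a log2 change had a median of 0.10 over the 78 genes and was largest for MRPL1, at 0.20. With CAF exosomes the 95% interval lay inside 1.5-fold in either direction for 74 of 78 genes, with hOMF exosomes for 76, and between the exosome groups for 78. No estimate reached 1.5-fold (0 of 78 in each comparison), against 7.26%, 8.86% and 1.28% of tested genes. Estimates of 1.2-fold or more were found for 4, 7 and 0 genes, against 30.0%, 33.8% and 9.86%. A limit of 1.2-fold could not be set for most genes singly: the interval lay inside it for 19, 24 and 31.

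**Figure D4:**
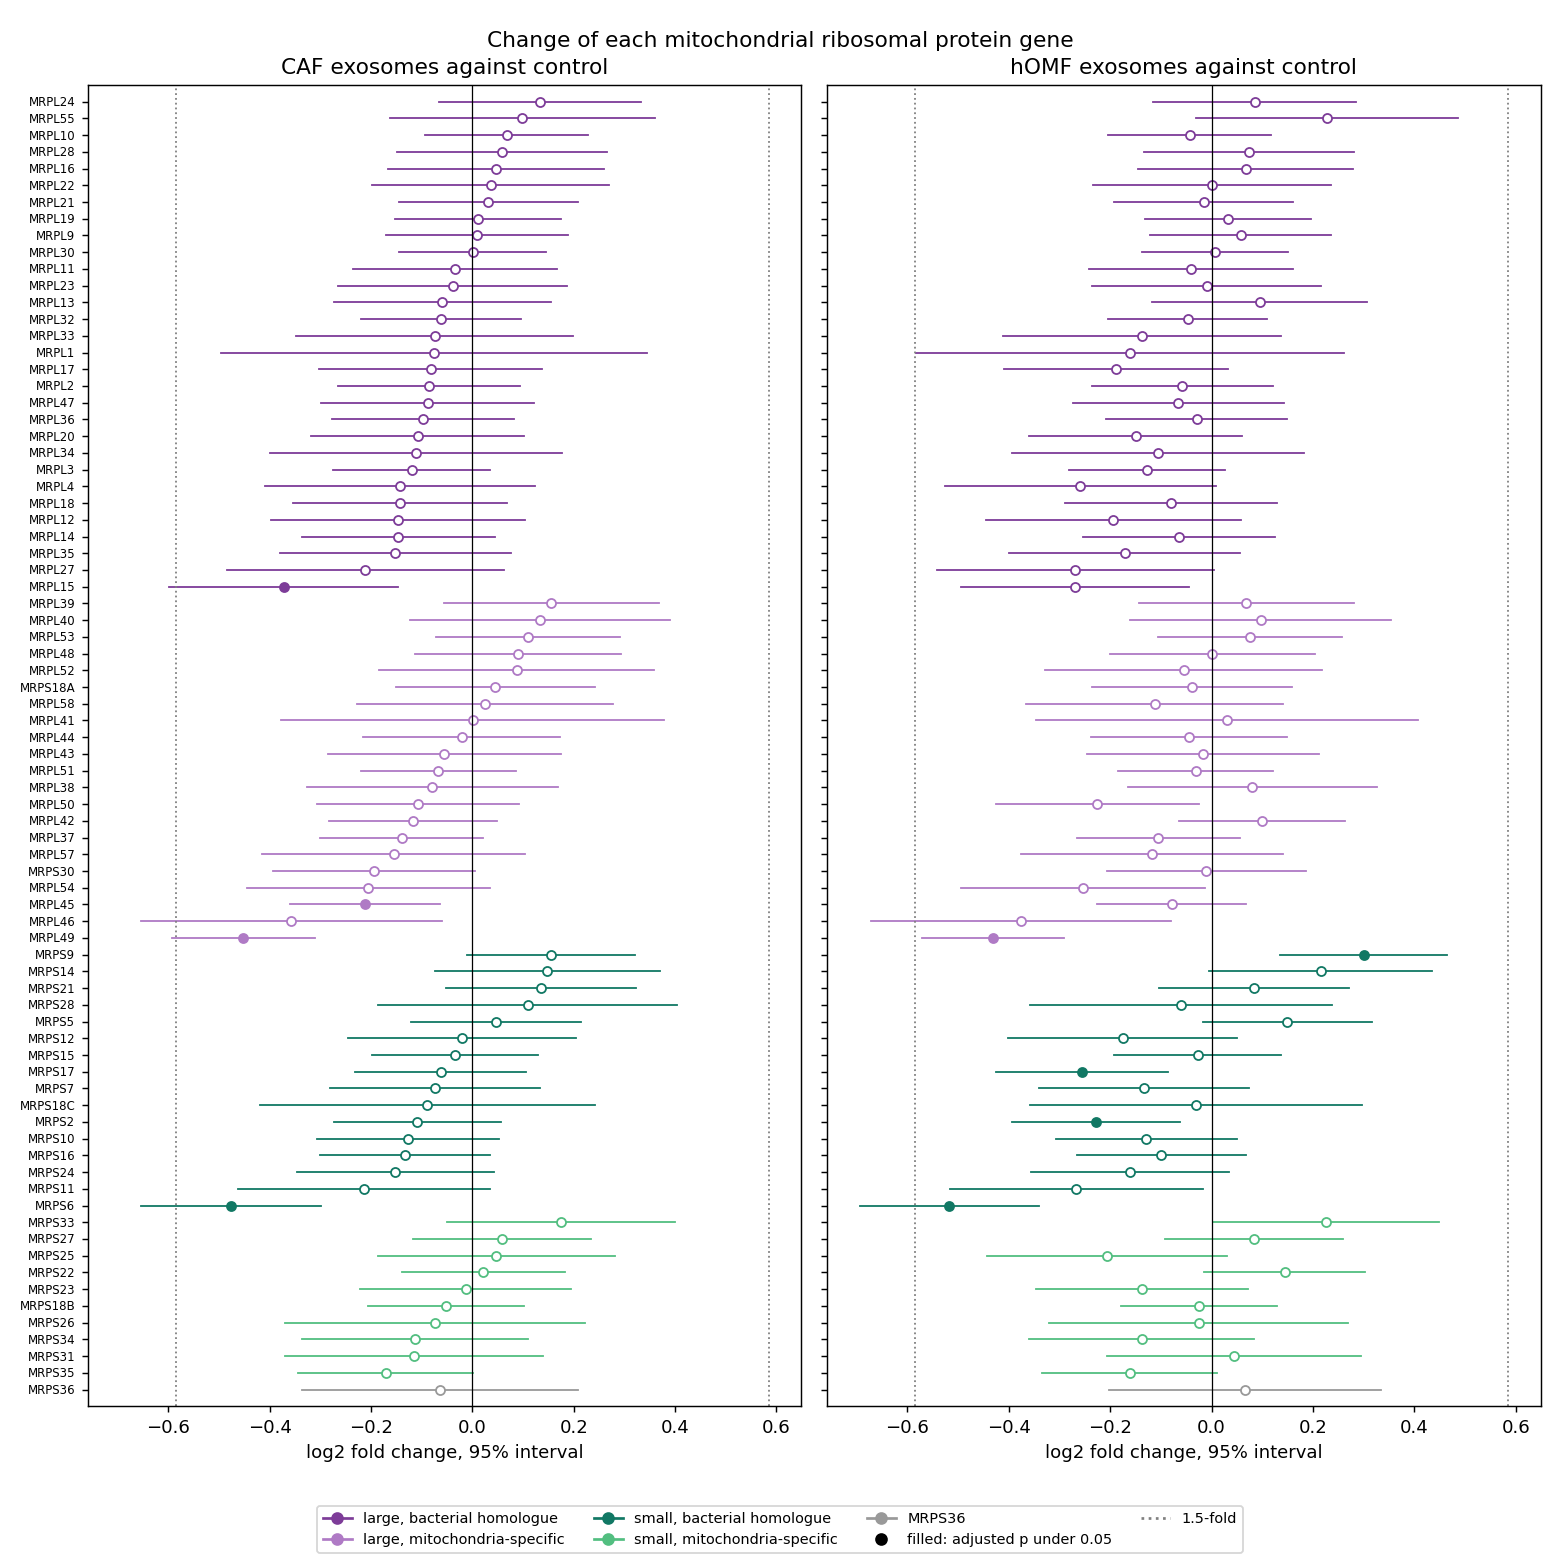
Each point is the log2 fold change of 1 gene against control with its 95% interval. Genes are grouped by subunit and by whether the protein was classed as having a bacterial homologue. Filled points have an adjusted p under 0.05. With CAF exosomes 4 points are filled and with hOMF exosomes 5, and dotted lines mark 1.5-fold, which no point reaches.

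Single libraries differed in the 78 genes as a set. On the log2 scale, the mean deviation of the genes from their own means over 9 libraries was -0.03, 0.04 and 0.11 in the control libraries, -0.13, 0.07 and -0.00 with CAF exosomes, and 0.02, -0.05 and -0.02 with hOMF exosomes. CAF replicate 1 was low and control replicate 3 high. CAF replicate 1 held the lowest value of 37 of the 78 genes (47.4%), against 13.1% of all tested genes. Control replicate 3 held the highest value of 31 (39.7%), against 17.5%. Group means of these deviations were 0.04 ± 0.07 in control, -0.02 ± 0.10 with CAF exosomes and -0.02 ± 0.04 with hOMF exosomes (SD, n = 3), and the SD of control and that of CAF exosomes were larger than any difference between the means, while that of hOMF exosomes was smaller than its difference from control.

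Without CAF replicate 1 the median change with CAF exosomes was -0.01 in place of -0.07. Without control replicate 3 it was -0.03, and the median with hOMF exosomes was -0.00 in place of -0.05. Adjusting the libraries for the GC content and length of transcripts brought the deviation of CAF replicate 1 to -0.07 and left that of control replicate 3 at 0.11. The part of PTPRC-bearing RNA in the values of control replicate 3 was not tested.

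**Figure D5:**
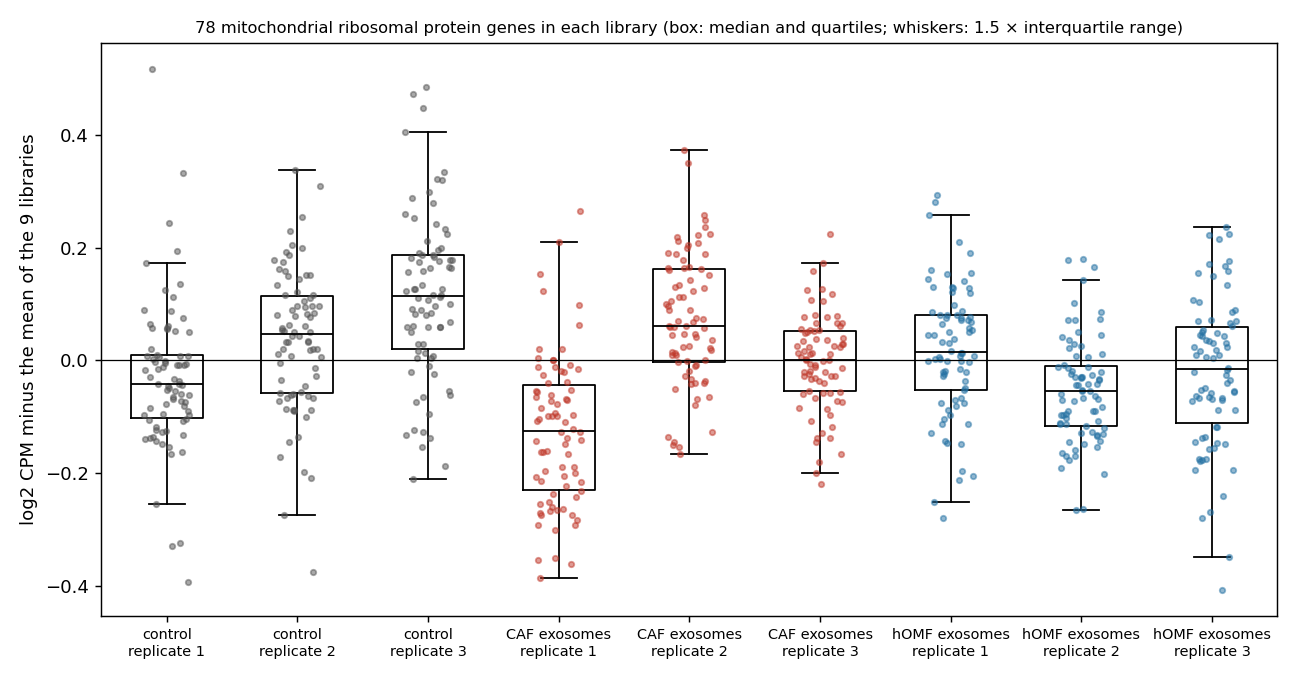
Points give log2 CPM of the 78 genes in each library minus their mean over the 9 libraries, and boxes give the median and quartiles. CAF replicate 1 sits lowest, with a mean deviation of -0.13, and control replicate 3 highest, with 0.11.

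Promoter stretches of MRPS6, which fell with both kinds of exosome, and MRPS9, which rose with hOMF exosomes, are shown to set the genes beside each other. Only the part outside annotated exons is given, from RefSeq on GRCh38.p14, on the + strand of each gene. Capitals mark GGGCGG or its reverse complement CCGCCC in MRPS6 and CCAAT in MRPS9.
MRPS6 (chr21:34073328-34073522): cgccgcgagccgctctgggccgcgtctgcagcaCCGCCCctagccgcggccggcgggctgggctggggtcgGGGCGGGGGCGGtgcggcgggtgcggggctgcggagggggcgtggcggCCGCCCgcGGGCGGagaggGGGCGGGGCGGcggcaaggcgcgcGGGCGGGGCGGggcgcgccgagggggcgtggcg
MRPS9 (chr2:105037819-105037982): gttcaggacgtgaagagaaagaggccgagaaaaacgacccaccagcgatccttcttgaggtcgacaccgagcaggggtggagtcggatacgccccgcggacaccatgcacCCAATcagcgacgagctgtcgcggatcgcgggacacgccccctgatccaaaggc

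The MRPS6 stretch holds 9 GGGCGG matches in 195 bases, and the MRPS9 stretch holds 0 in 164 bases and 1 CCAAT. The full promoter window of MRPS9 does hold GGGCGG and the NRF1 motif, but not within the stretch shown. Of the 7 genes called in either comparison, 6 had a promoter window. CCGGAAG or AAGATGGCG was in 0 of these 6, against 38 of the 70 windows (54.3%) and 22.6% of tested genes. GGGCGG was in 6, against 43 of the 70 windows (61.4%) and 70.5% of tested genes. With 6 genes this is a description only.

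Genes that serve the mitochondrial ribosome were set beside its proteins. Mitochondrial ribosomal proteins with other names (DAP3, PTCD3, CHCHD1, AURKAIP1 and GADD45GIP1) gave 0 calls of 5 by edgeR in each comparison with control, and 0 at an unadjusted p under 0.05. Among 27 assembly factors, 0 were called with CAF exosomes (6 at an unadjusted p under 0.05), and with hOMF exosomes 2 rose and 1 fell. Over all tested genes 18.2% were called with CAF exosomes (32.8% at an unadjusted p under 0.05) and 23.2% with hOMF exosomes. TFB1M, which methylates the RNA of the small subunit, rose from 19.9, 20.3 and 21.2 to 25.2, 22.1 and 27.3 CPM, a log2 change of 0.28 (adjusted p = 0.0402). METTL15, another methyltransferase of that RNA, rose by 0.32, and DHX30, a helicase of mitochondrial RNA granules, fell by 0.29. These calls were lost under 9, 6 and 12 of 20 settings. Of 16 translation factors, MTRF1L, a release factor that ends mitochondrial translation, was the 1 called in both comparisons. It measured 33.5, 35.3 and 35.7 CPM in control, 28, 27.6 and 26.4 with CAF exosomes and 24.0, 26.0 and 28.1 with hOMF exosomes. Its log2 changes were -0.35 (adjusted p = 0.00907) and -0.42 (adjusted p = 0.00225), and the call with CAF exosomes was lost under 2 of 20 settings, both fits on log2 FPKM.

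Of 10 genes of mitochondrial transcription and DNA replication, 0 rose and 2 fell in each comparison with control, where 8.64% and 11.4% of all tested genes fell and 18.2% and 23.2% were called. With 10 genes, 2 calls lie near the shares of all genes called. TFAM, which packages mitochondrial DNA and starts its transcription, measured 37.2, 40.8 and 39.2 CPM in control, 31.4, 28.7 and 27.1 with CAF exosomes and 29.3, 31.1 and 35.5 with hOMF exosomes. All 6 exosome libraries lay below control, with log2 changes of -0.43 (adjusted p = 0.00506) and -0.29 (adjusted p = 0.0309, lost under 7 of 20 settings). SSBP1, the single-stranded DNA binding protein of mitochondria, fell by 0.25 with CAF exosomes, a call lost under 12 settings. TWNK, the mitochondrial DNA helicase, fell by 0.47 with hOMF exosomes, a call lost under 6. TWNK overlaps the ribosomal protein gene MRPL43 on the opposite strand, and MRPL43 stood at -0.02.

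Of 11 nuclear regulators of genes for mitochondrial proteins, 2 fell with CAF exosomes and 3 with hOMF exosomes, and 0 rose. Of all tested genes, 18.2% and 23.2% were called and 8.64% and 11.4% fell, so these counts are also near the shares called overall. MYC, a transcription factor that drives ribosome production and growth, measured 292, 344 and 373 CPM in control, 219, 268 and 247 with CAF exosomes and 206, 204 and 202 with hOMF exosomes. Every exosome library lay below every control library, with log2 changes of -0.46 (SE 0.09) and -0.72 (SE 0.09). HCFC1, a cofactor of several promoter-binding factors, fell by 0.48 and 0.55. PPRC1, a coactivator related to PGC-1, fell by 0.42 with hOMF exosomes. Between the exosome groups 0 genes of these 5 lists were called by edgeR, and at an unadjusted p under 0.05 there were 1 translation factor and 3 regulators.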

How the data were processed

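Poly(A) RNA of 9 libraries was read as paired reads of 150 nucleotides, from strand-marked libraries, per the labels' protocols. The authors deposited expected counts, FPKM and TPM per gene, made with Bowtie2 2.2.5 and RSEM 1.2.8 per the submitters' processing notes. The notes name the build mm10 although all genes are human, so the build is uncertain. Whether counting used strand is not stated there, and reads of overlapping genes may be mixed. The deposited TPM values were not tested.

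Expected counts were rounded and filtered with filterByExpr of edgeR 4.0.16 (minimum count 10, minimum total 15). Libraries were TMM scaled and tested with the quasi-likelihood test (two-sided, 9 libraries, 6 residual degrees of freedom, group as the only term), and p-values were adjusted by Benjamini-Hochberg over 12470 genes, with calls under 0.05. SE values come from the fold change and the F statistic. Alternatives used DESeq2 1.42.0 and limma 3.58.1 in R 4.3.3. The code was tested on simulated data. Genes, lists and tests were chosen with earlier results of these data known. Named are all called genes (up to 20 a comparison, otherwise the smallest p until 10), the 5 highest and 5 lowest in control, genes whose place differs from their name, and up to 3 called genes of each other list. Overlaps come from GENCODE 29. Closest replicate libraries differed by more than sampling noise (chi-square per degree of freedom 3.14 to 5.25).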

Additional observations from a re-analysis of the deposited data

Results flagged for a closer look

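MRPL42, which encodes a mitochondria-specific protein of the large subunit, lay below every control library in all 3 libraries with CAF exosomes and above every control library in all 3 with hOMF exosomes. The difference between the exosome groups was -0.22 on the log2 scale (edgeR's quasi-likelihood test, adjusted p = 0.518), so it did not pass the threshold over all genes.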

How the results depend on the processing

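Each result was recomputed under 20 alternatives. With CAF exosomes against control, 4 genes were called; 2 were called with limma on log2(FPKM + 1) and on log2(FPKM + 0.1), 6 after correction for GC content and length, and between 2 and 4 with 1 library left out (2 without CAF replicate 1 or 3 or control replicate 2 or 3). With hOMF exosomes against control, 5 were called; 3 were called with library totals in place of TMM factors and with both log2 FPKM fits, 13 after correction for GC content and length, and between 3 and 5 with 1 library left out (3 without hOMF replicate 2 or 3 or control replicate 2). Between the exosome groups 0 were called under every alternative, while calls among all tested genes ran from 0 to 36. Among all tested genes, calls with CAF exosomes went from 2264 to 1893 and 1918 with the log2 FPKM fits. They were 3279 after correction for GC content and length. Leaving out CAF replicate 1 or 3 or control replicate 2 or 3 gave 1587, 1343, 1389 and 1442. Calls with hOMF exosomes among all tested genes went from 2896 to 2995 with library totals and to 2636 and 2661 with log2 FPKM. They were 3897 after correction for GC content and length. Leaving out hOMF replicate 2 or 3 or control replicate 2 gave 1695, 2661 and 2005. The cause of these differences was not tested. Medians over the 78 genes ranged from -0.11 to -0.01 with CAF exosomes, from -0.09 to 0.01 with hOMF exosomes and from -0.04 to 0.05 between the exosome groups. No result changed sign while past the threshold.

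Replicate numbers recur in the 3 groups, but the labels do not say that they pair the libraries. Correlations of same-numbered libraries ran from -0.15 to 0.14, and 5 of 9 libraries correlated best with their own number. With the replicate number as a block, 3, 5 and 0 genes were called with CAF exosomes, with hOMF exosomes and between the exosome groups. Calls among all tested genes were then 2101, 2718 and 2, against 2264, 2896 and 2 without the block.

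With 3 libraries a group and a median SE of 0.10, the 95% interval reached beyond 1.2-fold for most genes. It lay inside 1.2-fold for 19 of 78 genes with CAF exosomes, 24 with hOMF exosomes and 31 between the exosome groups.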
